A study of Salvia dorisiana with 6 samples.

Results

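Cytochrome P450s that were less abundant in the trichomes of *Salvia dorisiana* are described here: clust1523, clust3466, clust1600, clust1660 and clust4348. They are the 5 transcripts with a p450 domain in the PFAM annotation of the deposited list that remain after SdL7H (clust1545, the limonene 7-hydroxylase), clust1609, clust1568 and clust1540 are left out. The list holds 85 transcripts, of which 9 carry the domain. Each tissue of untreated, greenhouse-grown plants multiplied by cutting was sequenced as 1 library: trichomes, small leaves (<3 cm), mid-sized leaves (3–10 cm), large leaves (>10 cm), stem and roots. The trichomes were a total trichome fraction, in which several trichome types are mixed. They came from apical buds and young leaves, whose lengths reached from the small into the mid-sized class. The labels do not say how many plants went into a library. Levels are RPKM, a read number normalised for both the transcript's length and the number of reads mapped in its library. Reads were mapped to open reading frames from trichomes, so reads of other transcripts are not in that number. How this affects ratios between tissues was not tested. The study had kept only transcripts above 1000 RPKM in trichomes that correlated with the limonene synthase SdLS and with the pathway metabolites over the tissues. A peak in trichomes was thus a condition of entry and not a result.

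P450s are haem enzymes, in plants mostly bound to the endoplasmic reticulum, that take electrons from a reductase and insert an oxygen atom into their substrate. In glandular trichomes of the mint family they decorate the olefins that terpene synthases make, which sets the position of the hydroxyl group and thereby the branch of the pathway. Small changes in sequence can move the oxidized position, so a closest BLAST hit does not give the product of an enzyme.

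The 5 transcripts have 3 kinds of closest BLAST hit. Both clust1523 and clust1660 are closest to the P450 CYP71AT89. Both clust3466 and clust4348 are closest to menthofuran synthase, which in *Mentha* oxidizes the monoterpene pulegone, and SdL7H has the same closest hit. The hit of clust1600 is ferruginol synthase, which in *Salvia miltiorrhiza* oxidizes the diterpene miltiradiene. The coding lengths recovered from the RPKM values also separated them. They were 1524 nt for clust1523 and 1473 nt for clust1660, against 1473 to 1512 nt for the 4 more abundant P450s. These lengths were inferred from the values and not read from a sequence. Shorter frames were recovered for clust1600 (1221 nt), clust3466 (933 nt) and clust4348 (807 nt). The frame of clust3466 is 63.3% and that of clust4348 54.8% as long as the frame of SdL7H. Relative to clust3466, the level of clust4348 ran from 0.304 in small leaves to 0.454 in large leaves outside roots. Whether the shorter frames are parts of longer ones, or clust3466 and clust4348 parts of the same transcript, was not tested. Besides p450, the annotation gives Vir_act_alpha_C for clust1600 and DUF1599 and YojJ for clust1660. Cloned P450s of the study other than SdL7H are not paired with clusters in the list, and no nucleotide sequence of the 5 transcripts was used here.

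In trichomes the 5 transcripts were between 1064 and 3193 RPKM and together took 1.15% of the mapped fragments, against 5.94% for the 4 more abundant P450s. Ranges in brackets are exact 95% intervals for counting error alone, and since the reads carry no molecular identifiers even that error is a lower bound. With 1 library per tissue there is no replicate check, so variation between plants or preparations was not measured and no p-value is given. Comparisons that follow share libraries with each other.

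The most abundant was clust1523, at 3193 RPKM in trichomes (3144–3242). It was at 583 RPKM in small leaves, 248 in mid-sized leaves, 52.2 in large leaves, 14.5 in stem and 5.94 in roots. This was the widest range of leaf levels among the 5, and every library differed from the next by more than counting error. By RPKM it ranked 20 of 85 in trichomes, 53 in large leaves and 69 in stem.

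Second was clust3466, with 2759 RPKM in trichomes (2701–2819). It was at 305 RPKM in small leaves, 188 in mid-sized leaves, 68.7 in large leaves, 62.2 in stem and 2.63 in roots. Its levels in large leaves and stem were not separated by counting error, with a ratio of 1.10 (0.974–1.25). In both of these libraries it was the highest of the 5.

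The ferruginol synthase-like clust1600 was at 1312 RPKM in trichomes (1277–1347). It was at 161 RPKM in small leaves, 97.2 in mid-sized leaves, 39.3 in large leaves, 22.8 in stem and 2.26 in roots. By deposited value, the levels thus had the same order of tissues as in the first pair of transcripts.

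The remaining pair was near the entry limit of the list. The second CYP71AT89-like transcript, clust1660, was at 1092 RPKM in trichomes (1062–1121), 175 in small leaves, 107 in mid-sized leaves, 54.7 in large leaves, 11.0 in stem and 2.50 in roots. The second menthofuran synthase-like transcript, clust4348, was at 1064 RPKM in trichomes (1025–1103), 92.7 in small leaves, 80.9 in mid-sized leaves, 31.2 in large leaves, 22.0 in stem and 1.52 in roots. Their trichome levels were not separated by counting error (ratio 1.03, 0.980–1.07), while in small leaves clust1660 stood above and in stem below clust4348.

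**Figure D1:**
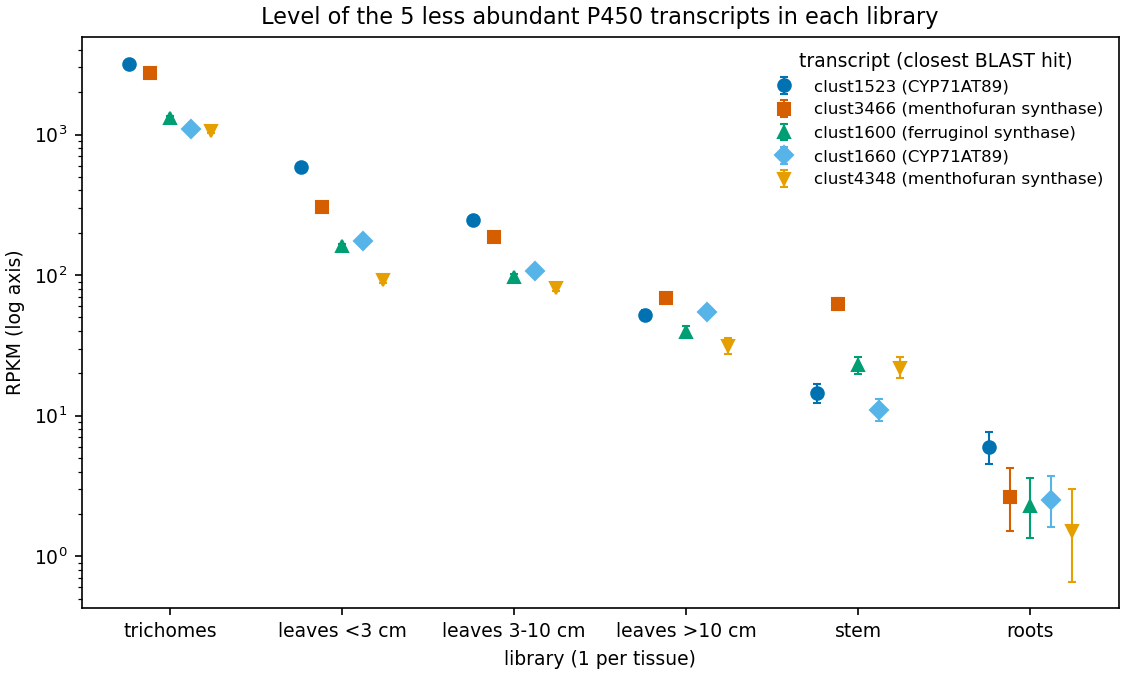
RPKM (log axis) of the 5 transcripts in each of the 6 libraries, 1 per tissue. Points are the deposited values and bars exact 95% counting intervals, which are hidden by the points where fragments are many. By deposited value all 5 have the same order of tissues, from trichomes (1064 to 3193 RPKM) to roots (1.52 to 5.94 RPKM). Counting error does not separate large leaves from stem for clust3466. The order among the transcripts shifts in large leaves and stem.

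The order of the 5 changed between tissues. In small leaves and in mid-sized leaves it was clust1523, clust3466, clust1660, clust1600 and clust4348, with every neighbouring pair apart by more than counting error. In large leaves clust3466 came first, and clust1660 and clust1523 followed without separation. In stem clust3466 was 2.73 times as abundant as the next, clust1600 (2.30–3.24), and both CYP71AT89-like transcripts were the lowest. In roots clust1523 was 2.26 times as abundant as clust3466 (1.28–4.20), and none of the other 4 was separated from its neighbour, at 8 to 24 fragments each.

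On the log2 ratio of RPKM + 1, which is used for every count past 2-fold, all 5 were at least 2-fold higher in trichomes than in small leaves, as were 95.3% of the 85 listed transcripts, so this count says nothing particular about them, and with each library divided by its list median clust4348 alone stayed higher in trichomes. The trichomes came from buds and from leaves of both the small and mid-sized classes, and the effect of this mixture on the ratios was not tested. The lowest of the 5 ratios were those of the CYP71AT89-like pair, 5.48-fold for clust1523 (5.35–5.60) and 6.24-fold for clust1660 (5.99–6.51). Next came clust1600 at 8.16-fold (7.80–8.54), clust3466 at 9.06-fold (8.73–9.40) and clust4348 at 11.5-fold (10.7–12.3). The ratio of SdL7H, 9.22-fold (9.08–9.37), lay between the last 2. On that log2 scale the 5 had a median of 3.02, against 3.28 for the 4 more abundant P450s, 3.90 for the 13 terpene synthases and 3.35 for the list. In the list, clust1523 ranked 69 and clust1660 ranked 67 of 85 by this ratio, and clust4348 alone stood above the list median.

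Each of the 5 was highest in small, intermediate in mid-sized and lowest in large leaves, an order found in 65 of the 85 listed transcripts, but with each library divided by its list median clust4348 was lower in small than in mid-sized leaves (log2 ratio −0.16 in place of 0.19). From small leaves to mid-sized leaves only clust1523 was at least 2-fold lower (20% of the list), at 2.35-fold (2.29–2.42). After that division it was not (log2 ratio 0.87), while 5 of the 85 were. For clust3466, clust1600 and clust1660 this first step was nearly the same, at 1.62-fold (1.55–1.70), 1.65-fold (1.57–1.75) and 1.64-fold (1.56–1.72). The smallest first step was that of clust4348, 1.15-fold (1.06–1.24).

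From mid-sized leaves to large leaves, 4 of the 5 were at least 2-fold lower, against 49.4% of the list, and after division by the list median only clust1523 was, against 15 of the 85. As deposited, clust1660 was just short of it at 1.95-fold (1.80–2.11). The largest second step was again that of clust1523, 4.75-fold (4.40–5.12). It was 2.73-fold for clust3466 (2.50–2.98), 2.59-fold for clust4348 (2.26–2.99) and 2.47-fold for clust1600 (2.23–2.74). Over both steps clust1523 was 11.2-fold lower (10.4–12.0), ranking 7 of 85 by the log2 ratio of small leaves over large leaves, next to clust1568 at 10.1-fold (9.47–10.8). The other 4 were 2.97-fold to 4.43-fold lower. The whole list had a median log2 ratio of 1.34 over both steps, below each of the 5, whose lowest was 1.54 for clust4348. In bulk tissue, fewer trichomes on a larger leaf cannot be told apart from less of a transcript in each trichome.

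**Figure D2:**
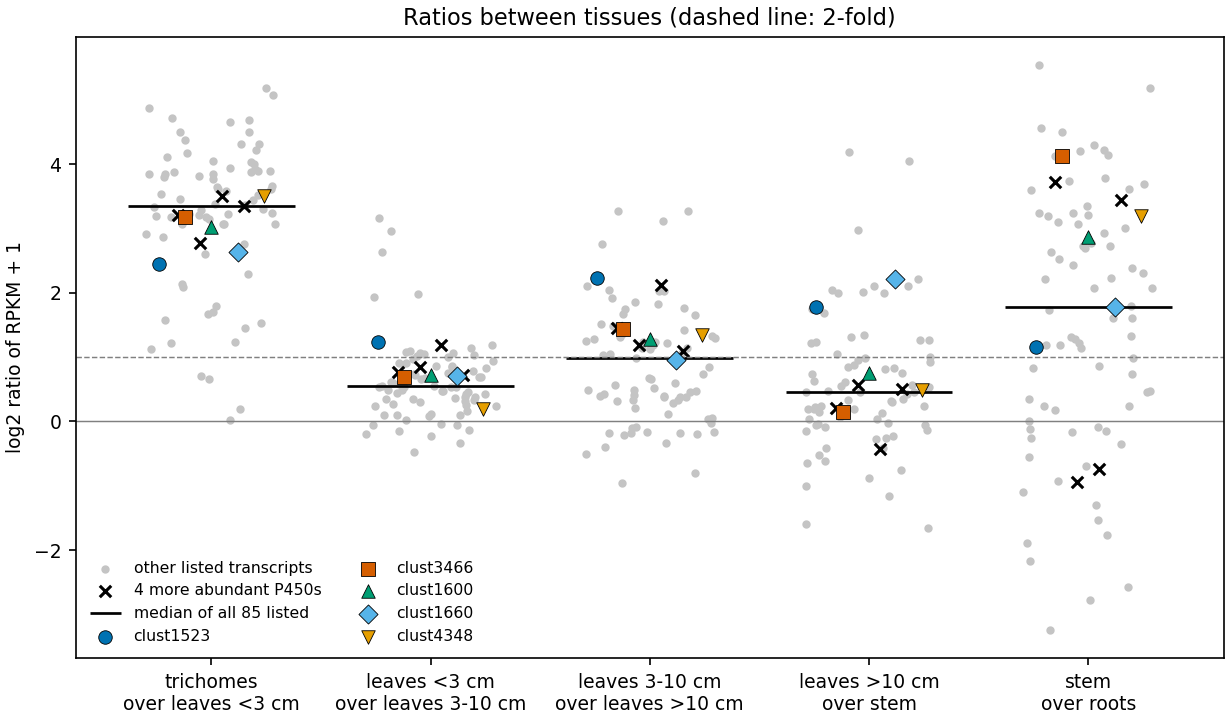
Log2 ratio of RPKM + 1 (vertical axis) for 5 pairs of libraries, in the 5 transcripts (coloured symbols), the 4 more abundant P450s (crosses) and the other listed transcripts (grey points), with the median of all 85 as a black line. The dashed line marks 2-fold; clust1523 lies below the median for trichomes over small leaves (2.45 against 3.35) and above it at both leaf steps, and clust1523 and clust1660 stand above the other 3 for large leaves over stem.

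For large leaves over stem, the CYP71AT89-like pair stood apart from the others. Only clust1523 and clust1660 were at least 2-fold higher in large leaves than in stem, as were 27.1% of the list. With each library divided by its list median only clust1660 was (log2 ratio 1.34, and 0.89 for clust1523), against 11 of the 85 listed. After that division clust3466, clust1600 and clust4348 were lower in large leaves than in stem (log2 ratios −0.79, −0.15 and −0.42). As deposited, the ratio was 3.60-fold for clust1523 (3.03–4.29) and 4.96-fold for clust1660 (4.08–6.07). For the others it was 1.10-fold for clust3466, 1.42-fold for clust4348 (1.14–1.77) and 1.72-fold for clust1600 (1.46–2.04). The intervals of clust4348 and clust1600 overlap, although their closest hits differ. The 4 more abundant P450s lay between 0.744-fold for clust1568 and 1.48-fold for clust1609. Each group of hits held 1 or 2 of the 5 transcripts, and the grouping was looked at with these values known, so it is a description of these libraries. The P450-annotated transcript without the domain, clust5902, closest to a cytochrome P450 71B9-like protein, was also low in stem, at 3.50 RPKM against 17.5 in large leaves (4.99-fold, 2.93–9.05).

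**Figure D3:**
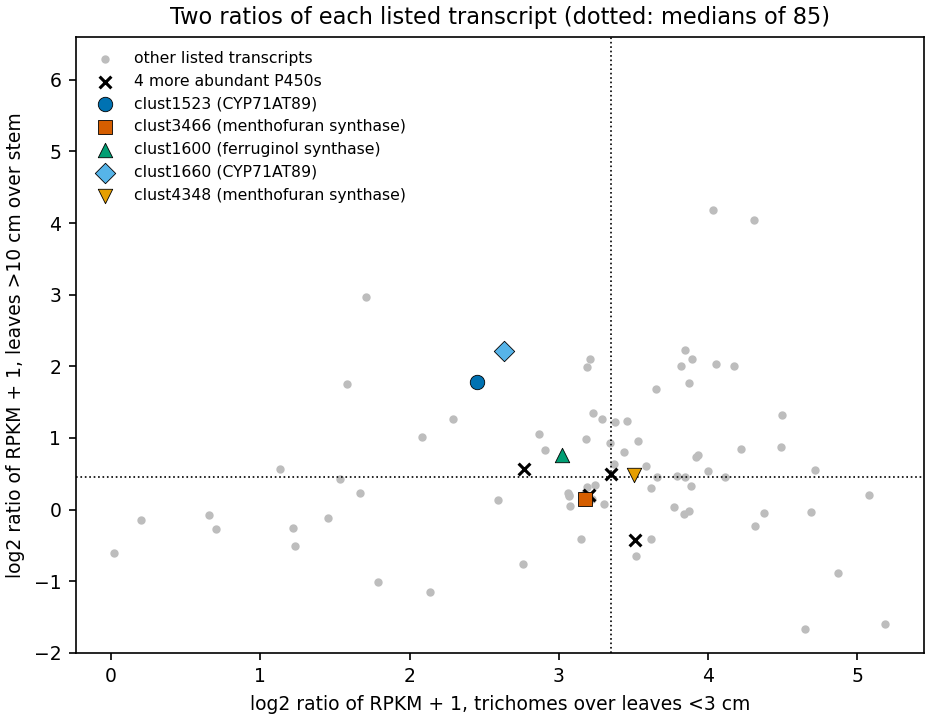
Each point is a listed transcript, with its log2 ratio of RPKM + 1 for trichomes over small leaves on the horizontal axis and for large leaves over stem on the vertical axis, and dotted lines at the medians of the 85 (3.35 and 0.46). Both CYP71AT89-like transcripts are to the left of and above the medians, at 2.45 and 1.78 for clust1523 and 2.64 and 2.21 for clust1660.

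Roots held little of any of the 5. All were at least 2-fold higher in stem than in roots, against 63.5% of the list, but with each library divided by its list median clust1523 and clust1660 were lower in stem. The ratio ran from 2.44-fold for clust1523 (1.80–3.35) and 4.41-fold for clust1660 (2.83–7.16) to 23.6-fold for clust3466 (14.4–41.7). Relative to the list, whose median log2 ratio was 1.78, clust1523 at 1.16 was low and clust3466 at 4.12 was high. As a share of the trichome level, roots kept 0.186% of clust1523 (0.142–0.240), 0.229% of clust1660 (0.147–0.341), 0.172% of clust1600 (0.102–0.273), 0.143% of clust4348 (0.0617–0.282) and 0.0954% of clust3466 (0.0545–0.155). These intervals all overlap, and behind them, in the same order, are 59, 24, 18, 8 and 16 fragments. The more abundant P450s clust1609 and clust1568, both ferruginol synthase-like, kept 4.60% and 1.95%, so clust1600 was lower in roots than these although ferruginol synthase is in the name of each closest hit. The third of that kind, clust1540, closest to CYP76AK6, kept 0.166% (0.136–0.201), a value whose interval overlaps that of clust1600.

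Outside roots, the level of clust3466 moved with that of SdL7H. Relative to SdL7H it was 0.297 in trichomes (0.290–0.304), 0.302 in small leaves (0.293–0.313), 0.318 in mid-sized leaves (0.307–0.330), 0.322 in large leaves (0.295–0.352), 0.336 in stem (0.302–0.373) and 0.200 in roots (0.111–0.338). Over the 5 libraries other than roots the ratio varied by 1.13 times, while the level of clust3466 itself ran from 2759 to 62.2 RPKM. Only trichomes against mid-sized leaves had intervals that did not overlap. A read could be placed at several matching transcripts, clust3466 and SdL7H have the same closest BLAST hit, and how many fragments they share was not tested.

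The level of clust4348 kept less close to SdL7H. The ratio was 0.114 in trichomes (0.110–0.119), 0.0920 in small leaves (0.0866–0.0977), 0.137 in mid-sized leaves (0.130–0.146) and 0.146 in large leaves (0.128–0.167). In stem it was 0.119 (0.0987–0.142) and in roots 0.116 (0.0490–0.235). It was thus lowest in small leaves, with an interval apart from those of trichomes, both larger leaf classes and stem. The level of clust1600, whose closest hit differs, was also set against SdL7H. Its ratio ran from 0.123 in stem (0.106–0.142) to 0.184 in large leaves (0.167–0.204).

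Within the CYP71AT89-like pair the ratio was not constant. The level of clust1523 was 2.92 times that of clust1660 in trichomes (2.84–3.02), 3.33 times in small leaves (3.22–3.46) and 2.32 times in mid-sized leaves (2.23–2.42). In large leaves the 2 were level, at 0.954 times (0.861–1.06), and in stem the ratio was 1.32 (1.03–1.68). In roots it was 2.38 (1.46–3.99). The pair thus differed by 3.50 times in ratio between small leaves and large leaves, although both have the same closest hit.

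**Figure D4:**
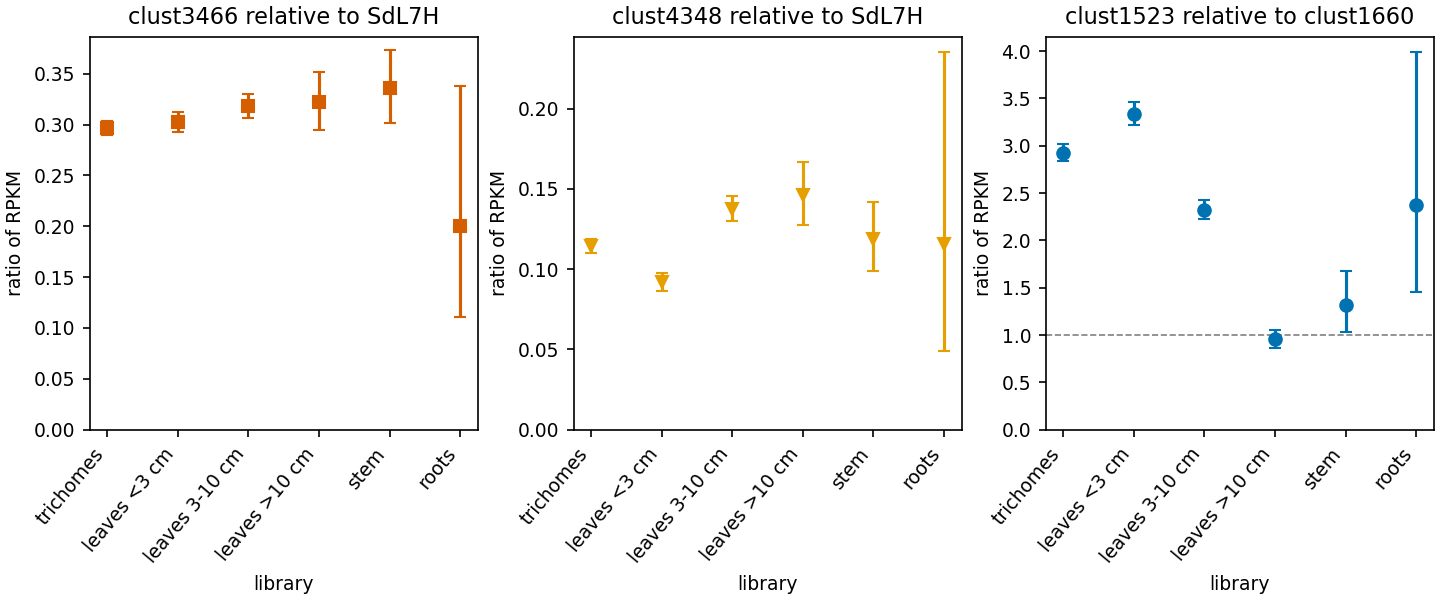
Ratio of RPKM within each library for clust3466 relative to SdL7H, clust4348 relative to SdL7H and clust1523 relative to clust1660, with exact 95% counting intervals as bars and axes that start at 0. The first ratio stays between 0.297 and 0.336 outside roots, the second is lowest in small leaves (0.0920), and the third reaches 1 (dashed line) in large leaves.

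Profiles were compared by a distance, the root mean square difference over the 6 libraries between log2 profiles of RPKM + 1, each centred on its own mean. Each of the 5 was set against the other 84 listed transcripts, and the nearest 3 are given. The profile nearest to clust3466 was that of clust1946, closest to an alcohol acyltransferase of lavender, at a distance of 0.10, then SdL7H at 0.13 and the *O*-methyltransferase-like clust2472 at 0.21. For clust1600 the nearest were clust1540 at 0.20, clust4348 at 0.22 and clust2724, closest to a flavonoid 4'-*O*-methyltransferase, at 0.26. For clust4348 they were clust2724 at 0.18, clust1540 at 0.19 and clust1600 at 0.22. SdL7H was at a distance of 0.28 from clust1600 (order 4 of 84) and 0.30 from clust4348 (order 6). A profile near that of SdL7H was thus not particular to the menthofuran synthase-like pair. From clust1660 and clust1523 SdL7H was farther, at 0.69 and 0.93.

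Both CYP71AT89-like transcripts had less close neighbours. The nearest to clust1523 were clust5902 at 0.50, clust1050, closest to the sesquiterpene enzymes caryophyllene synthase and germacrene D synthase, at 0.54, and clust1660 at 0.63. For clust1660 they were clust1600 at 0.46, clust1129, closest to germacrene D synthase, at 0.52 and clust3980, closest to isopentenyl diphosphate isomerase, at 0.55. The cluster that holds SdLS, clust603, is also named SdEuS in the list. Over all 6 libraries it was far from all 5, at order 53 to 55 of 84 and a distance of 1.37 to 1.65. It was at 455 RPKM in roots, 2.04% of its trichome level, which exceeds the root share of each of the 5. Between trichomes and stem, clust603 had a ratio of 52.3-fold, against 44.4-fold for clust3466, 48.4-fold for clust4348 and 57.5-fold for clust1600. That of clust1660 was 99.0-fold and that of clust1523 220-fold. The distance to clust603 without roots was not tested, and each of the 5 had entered the list for its correlation with SdLS. All distances rest on the same 6 libraries, and without roots, a setting chosen after seeing the data, 0 of the 3 nearest to clust1600 and 1 of the 3 nearest to clust1660 were the same. With a pseudocount of 10 RPKM, 2 of the 3 were the same for clust1523 and 1 of the 3 for each of the others.

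The only listed transcript with a cytochrome b5 domain, clust5333, is annotated as a membrane steroid-binding protein, a class that in *Arabidopsis* binds P450s of lignin synthesis. It was at 2775 RPKM in trichomes, 311 in small leaves, 188 in mid-sized leaves, 133 in large leaves, 178 in stem and 610 in roots. It differed from the 5 P450s in roots, where it kept 22.0% of its trichome level (21.0–23.0). In stem it differed as well, being lower in large leaves than in stem (0.749-fold, 0.681–0.823). As deposited, none of the 5 P450s was lower in large leaves than in stem.

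Of other cell types, only sieve elements are represented in the list by name, with 2 transcripts closest to SIEVE ELEMENT OCCLUSION B. One of them, clust226, had 1467 RPKM in trichomes against 625 in small leaves, and the other, clust219, had 1431 against 54.5 RPKM. Both passed the entry limit for trichomes, and their part in the levels of the 5 P450s was not tested. Markers of other tissues were not analysed here.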

How the data were processed

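RNA of 6 tissues was sequenced as read pairs, 1 library each, from stranded libraries that the submitters' processing notes say were separated with CASAVA 1.8.1. The authors' reference was a set of trichome PacBio open reading frames, 600 nt or longer, merged by similarity into consensus clusters, to which CLC Genomics Workbench mapped the pairs. A pair counted once, strand was not used and a read could match at several places, so close family members can share reads. The authors deposited RPKM for 85 selected transcripts; their columns of correlations with metabolites and with SdLS were not used. RPKM columns of samples outside the series numbered 0.

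RPKM values were used as deposited. Ratios between tissues are folds of RPKM, or where named log2 ratios of RPKM + 1 (pseudocount 1 RPKM), which understate a ratio in which a level is low. With 1 library per tissue, a 2-fold difference on the latter scale stood in for a call. Fragments were recovered as RPKM times coding length times library total, taking lengths in multiples of 3 nt and the smallest totals that gave whole fragments: 510 of 510 values were whole within 0.001 fragments, with totals of 3314347 (trichomes) to 19415968 (mid-sized leaves). Tested on simulated data, 3 tables of 85 transcripts, the search found 100% of totals and all fragments of 99.6% of transcripts. The simulated tables used the recovered lengths in shuffled order and totals of a similar range. They check the search itself and cannot show that the lengths and totals of the real table are right. Totals that are whole multiples of these would serve as well and would narrow the intervals. Recovered lengths ran opposite to the number in the cluster name (Spearman rho −0.94 over the 85 transcripts, which are not independent replicates). Intervals are exact Poisson (RPKM) and Clopper-Pearson (ratios), both 95%.

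Named were the 5 transcripts, the other P450s, SdLS, the 3 nearest profiles of each of the 5, and the fixed lists of terpene synthases, cytochrome b5 domain and sieve element transcripts. Members, lists and alternatives were chosen with earlier results of these data known. Versions were matplotlib 3.10.9, pandas 2.3.3, scipy 1.17.1, numpy 2.4.6 and Python 3.11.15.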

Additional observations from a re-analysis of the deposited data

How the results depend on the processing

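With a pseudocount of 0.1 RPKM, or with at least 10 recovered fragments in both libraries, each count of the 5 transcripts past 2-fold stayed within 1.5 times; the latter left out clust4348 for stem over roots. A pseudocount of 10 RPKM gave 3 of 5 for stem over roots, against 44 of the 85 listed transcripts. With RPKM divided by the median of the 85 transcripts in its library, a change relative to the list, 0 were past 2-fold for trichomes over small leaves, 0 for small leaves over mid-sized leaves, and 1 each for mid-sized leaves over large leaves, large leaves over stem and stem over roots. The same counts over all 85 listed transcripts were, in that order, 11, 5, 15, 11 and 17. On that scale trichomes over small leaves gave a log2 ratio of −0.77 for clust1523, −0.048 for clust3466, −0.20 for clust1600 and −0.58 for clust1660, and that of stem over roots was −1.52 for clust1523 and −0.68 for clust1660. Under 2-fold as deposited, the sign also turned for clust4348 in small over mid-sized leaves (−0.16) and in large leaves over stem for clust3466 (−0.79), clust1600 (−0.15) and clust4348 (−0.42), so that 10 of 99 alternative log2 ratios changed sign, all 10 with list-median scaling. Ranked by recovered fragments, which favour long frames, clust1660 stood at 56 of 85 in trichomes, against 74 by RPKM, and clust4348 at 83, against 77. The nearest profiles depended on the pseudocount and the libraries: with 10 RPKM 2 of the 3 were shared for clust1523 and 1 for each of the others, without trichomes 2 or 3 of the 3 were shared for each of the 5, and without roots, a setting chosen after seeing the data, 0 for clust1600, 1 for clust1660 and 2 for the others. In roots, 8 to 59 fragments limit every value. No paired analysis was possible because each tissue has 1 library.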
